A study of Rattus norvegicus with 9 samples.

Results

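RNA-binding proteins that assemble into transport granules carry mRNAs from the cell body into dendrites and control their translation there. The mRNAs of 9 such proteins were examined in severed rat dendrites: Fmr1, Fxr1 and Fxr2 of the fragile X family, the double-stranded RNA binders Stau1 and Stau2, and Pura, Cpeb1, Igf2bp1 and Zfp36l1. All probe sets that name 1 of these genes and no other in the platform's gene table were taken, which gave 14 of 31042 probe sets and 9 of 14217 genes. Of the 9 genes, 7 had a single probe set, Fxr1 had 3 and Stau2 had 4. No member probe set named several genes. Where a gene had several probe sets, its value on an array was their median.

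The arrays were Affymetrix rat expression arrays, and the groups were pools of 100, 200 or 400 dendrites, with 3 arrays labelled as biological replicates per pool size. All neurons came from hippocampi of Sprague-Dawley rat embryos at embryonic day 19, were untreated and had been in primary culture for 14 days. Somata were aspirated before the dendrites were taken, and the dendrites of a pool came from several cells. The labels do not say whether replicates of a pool size came from separate animals or cultures, so the spread and the p-values cover the spread between these samples, which may in part be technical. According to the study axons could not be told from dendrites by their shape, so a minor share of axonal RNA belongs to every pool. The study also states that its dendrite samples may hold contaminating RNA of somata.

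A granule of this kind holds mRNAs, RNA-binding proteins and often ribosomal subunits, and moves along microtubules on kinesin motors. The bound mRNAs are kept silent during transport and are translated near synapses after stimulation. The fragile X proteins bind mRNA through KH domains and associate with polyribosomes, and loss of FMRP, the product of Fmr1, causes fragile X syndrome. Staufen proteins recognise double-stranded stems of mRNAs. The arrays measured the mRNAs that encode these proteins, not the proteins themselves, and presence of the mRNA in a dendrite is a separate matter from presence of the protein in a granule.

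The values are log2 signals computed by RMA, a method that removes background, brings all arrays to 1 distribution and merges probes into probe sets. Probes differ in affinity, so a signal gives no amount of RNA that can be set against another gene's, and neither does its rank on the array, which serves here only to say where on the array's scale a probe set lay. The percentile of a gene is the share of the 14217 genes with a lower or equal signal on the same array, and its median over the 9 arrays is given below. RMA makes no call of presence, so a low percentile does not show that an mRNA was absent. In pooled dendrites, fewer dendrites that carry an mRNA and less of it per dendrite cannot be told apart.

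The 9 members spanned nearly the whole range of signal, with median percentiles from 3.02 for Fmr1 to 98.6 for Zfp36l1. Their median was 46.4, against 49.9 over all genes, and 4 of 9 lay above the 50th percentile, where 49.9% of all genes lay. The other members lay at 12.1 for Fxr1, 40.6 for Cpeb1, 42.6 for Fxr2, 46.4 for Stau1, 54.7 for Pura, 59.1 for Stau2 and 71.6 for Igf2bp1. Zfp36l1 kept its place on every array, between 97.7 and 99.3, and apart from Zfp36l1 the percentiles of members next to each other in value overlapped between arrays. These places order signals of different probes, not amounts of mRNA.

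**Figure D1:**
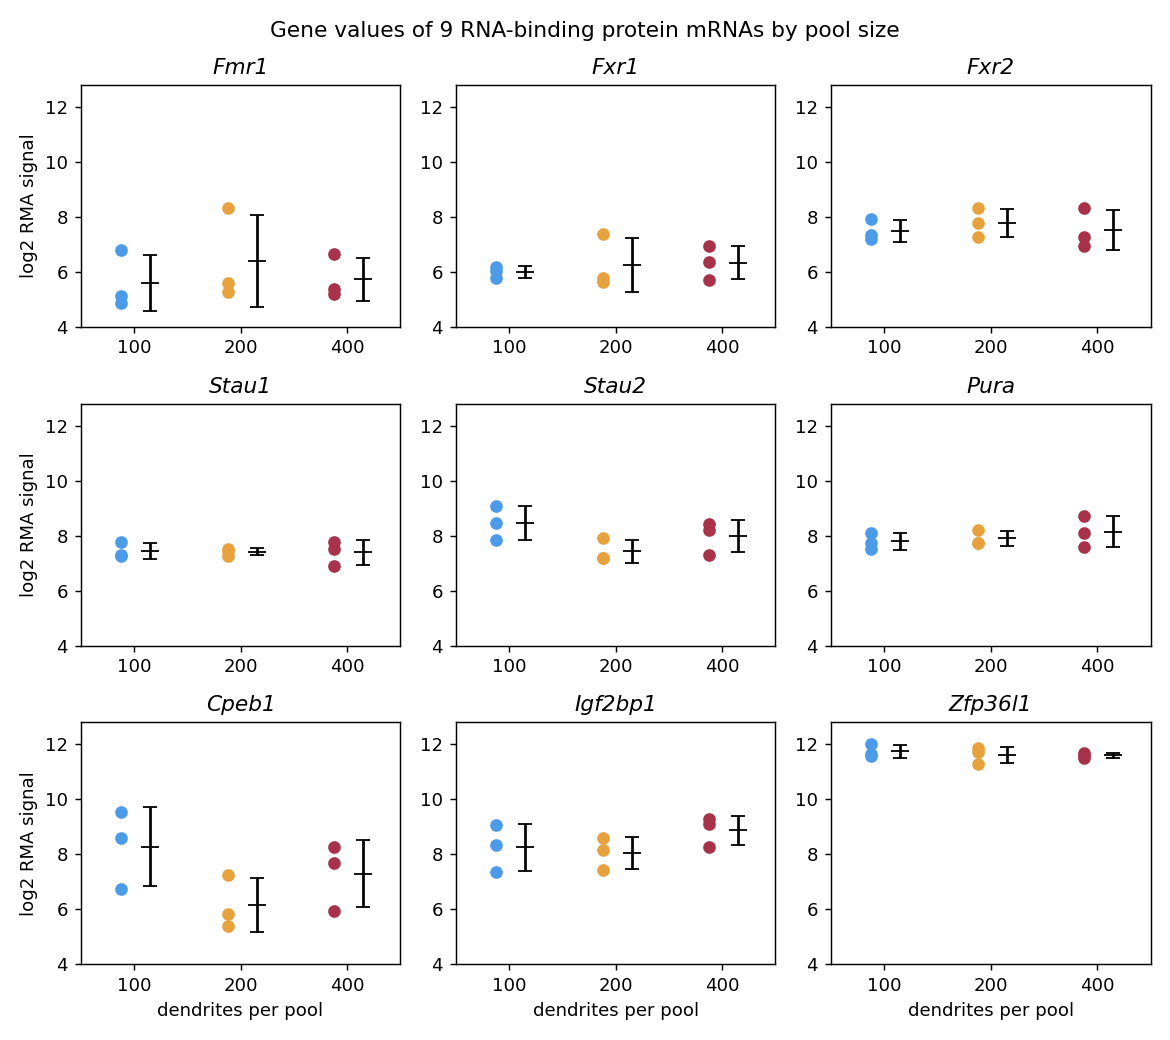
Gene values (log2 RMA signal, vertical axis) of the 9 mRNAs in pools of 100, 200 and 400 dendrites (horizontal axis). Coloured points are the 3 arrays of a pool size, and black bars beside them are their mean ± SD. Zfp36l1 stays between 11.30 and 12.01 on all arrays, Cpeb1 runs from 5.40 to 9.52, and 1 array of 200 dendrites holds the highest Fmr1 value, 8.34.

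Fxr2, a paralog of Fmr1 in the fragile X family, had signals of 7.94, 7.21 and 7.33 in the 3 pools of 100 dendrites, 8.31, 7.79 and 7.28 in those of 200, and 8.34, 6.95 and 7.28 in those of 400. The pool sizes overlapped, and replicate 1 was the highest in each of them. The labels do not say whether replicate numbers link arrays across pool sizes.

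Fmr1 was near the bottom of the array's scale on most arrays. Its signals were 6.78, 5.12 and 4.88 with 100 dendrites, 8.34, 5.58 and 5.27 with 200, and 5.20, 5.38 and 6.63 with 400. Replicate 1 of 200 dendrites placed Fmr1 at the 71.1st percentile, replicate 1 of 100 dendrites at the 28.2nd and replicate 3 of 400 dendrites at the 24.0th, and the other 6 arrays placed it between 0.18 and 5.30. The SD over the 9 arrays, 1.13, was larger than that of 96.5% of all genes.

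Fxr1, the third paralog, was also low, with a mean of 6.19 ± 0.60 (SD, n = 9). Its gene values were 6.17, 6.04 and 5.76 with 100 dendrites, 7.37, 5.63 and 5.76 with 200, and 6.94, 6.35 and 5.72 with 400. The highest value was on the array that was highest for Fmr1. The 3 probe sets of Fxr1 lay close together, at median percentiles of 10.2, 19.6 and 10.9 among all probe sets. Their span of 9.38 points compares with a median span of 43.2 over the 1036 genes that have 3 probe sets, and 3.47% of those genes had a smaller span. The probe sets were nevertheless not high on the same arrays: 1374476_at was highest in replicate 1 of 200 dendrites (7.75), 1378054_at in replicate 2 of 400 dendrites (7.69) and 1383236_at in replicate 1 of 400 dendrites (7.04). In replicate 1 of 200 dendrites, the array of the highest gene value, 1383236_at had its lowest value, 5.45.

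The staufen genes had middling signals as genes. Stau1, which also acts in a decay pathway of mRNAs, was the second steadiest member, at 7.76, 7.25 and 7.30 with 100 dendrites, 7.27, 7.51 and 7.45 with 200, and 7.78, 7.50 and 6.90 with 400. Its SD of 0.27 exceeded that of 5.44% of genes. Stau2, the paralog enriched in brain, had gene values of 7.84, 9.08 and 8.45 with 100 dendrites, 7.19, 7.91 and 7.19 with 200, and 7.31, 8.40 and 8.20 with 400. The lowest 2 values were from pools of 200 and the highest 2 from pools of 100, and 1 array of 200 dendrites, at 7.91, lay above the lowest array of 100, at 7.84.

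The position of Stau2 depended on which probe set was read. Probe set 1387456_at ranked at the 96.4th percentile of all probe sets, 1390558_at at the 69.5th, 1370680_at at the 39.9th and 1379754_at at the 23.1st. This span of 73.3 points was larger than that of 79.0% of the 290 genes with 4 probe sets, whose median span was 57.1. Stau2 is transcribed into several isoforms, and the positions of its probe sets within the transcripts were not used here. The brightest probe set read 11.53, 11.28 and 11.28 with 100 dendrites, 10.90, 11.37 and 11.20 with 200, and 9.79, 11.06 and 10.98 with 400. Only replicate 1 of 400 dendrites was below 10.90. Probe set 1390558_at had a mean of 8.77 ± 1.22 (SD, n = 9) and a single array, replicate 2 of 100 dendrites, at 11.33, with 9.75 as the next highest value.

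**Figure D2:**
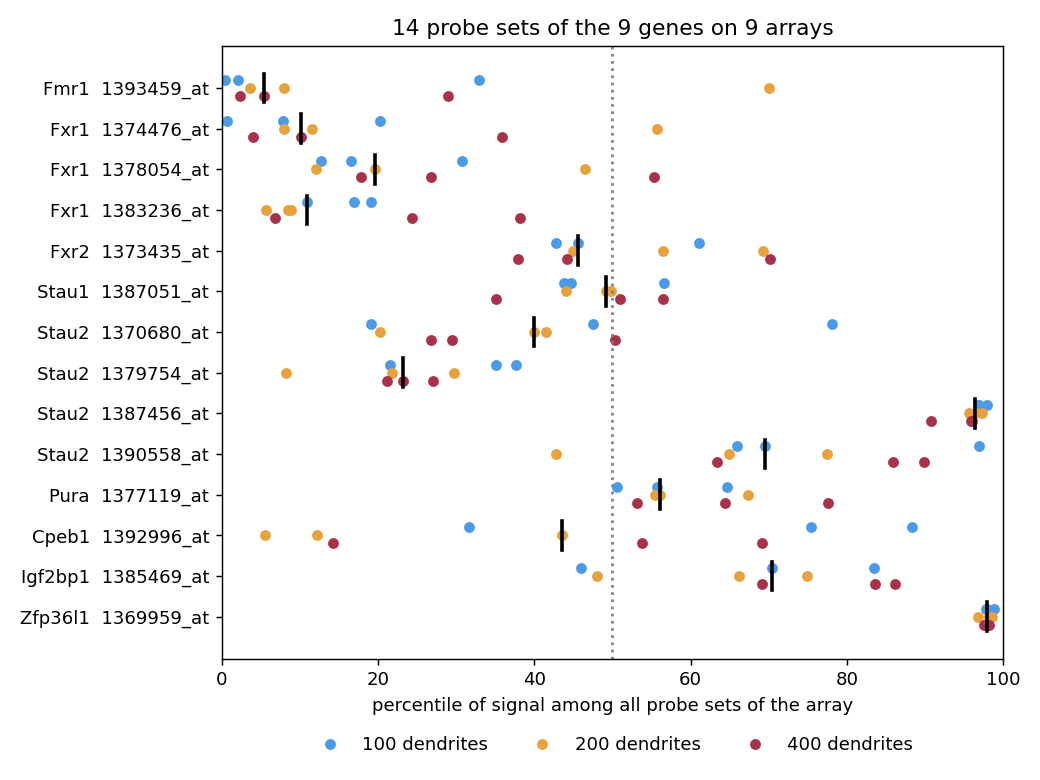
Percentile of signal among the 31042 probe sets of an array (horizontal axis) for the 14 member probe sets (vertical axis, gene and probe set). Points are single arrays coloured by pool size, black ticks are medians over 9 arrays, and the dotted line marks the 50th percentile. The 4 probe sets of Stau2 have medians from 23.1 to 96.4, while the 3 of Fxr1 stay between 10.2 and 19.6.

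Probe sets of 1 gene showed no correlation over the 9 arrays that passed adjustment. Among the 9 pairs of probe sets within Fxr1 and within Stau2, Pearson's r ran from -0.37 to 0.51, and the lowest Benjamini-Hochberg adjusted p of the exact permutation tests was 0.657. The probe set pair of r = 0.51 was 1379754_at with 1390558_at of Stau2 (rho = 0.43, and r = 0.56 without the 2 arrays farthest from the median of the first).

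Pura encodes a protein that binds purine-rich single-stranded nucleic acids and is found with kinesin in dendritic granules. Its percentile was 48.4 or above on every array, with values of 7.51, 8.10 and 7.75 in pools of 100, 8.22, 7.75 and 7.74 in pools of 200, and 8.10, 7.59 and 8.72 in pools of 400. The highest value came from replicate 3 of 400 dendrites, and the 3 pool sizes overlapped.

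Igf2bp1 encodes the zipcode-binding protein that carries beta-actin mRNA. Its values were 8.33, 7.34 and 9.07 with 100 dendrites, 7.43, 8.58 and 8.16 with 200, and 9.27, 8.28 and 9.09 with 400. The percentile ran from 43.3 in replicate 2 of 100 dendrites to 87.8 in replicate 1 of 400 dendrites.

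Cpeb1, which binds the cytoplasmic polyadenylation element and controls tail length and translation at synapses, was the most variable member. It read 6.73, 8.60 and 9.52 with 100 dendrites, 7.25, 5.82 and 5.40 with 200, and 7.67, 8.27 and 5.95 with 400. Its SD of 1.40 exceeded that of 99.0% of genes, and its percentile ran from 3.3 in replicate 3 of 200 dendrites to 90.1 in replicate 3 of 100 dendrites. Arrays of 100 dendrites were both above and below the highest array of 200.

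Zfp36l1 encodes a zinc finger protein that binds AU-rich elements and recruits deadenylases. Its values were 12.01, 11.64 and 11.58 with 100 dendrites, 11.86, 11.71 and 11.30 with 200, and 11.68, 11.60 and 11.51 with 400. All 9 arrays lay within a narrow band, and its SD of 0.20 exceeded that of 1.80% of genes.

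For comparison, percentiles were taken for 50 genes of other organs, such as those of liver, muscle or pancreas, for which hippocampal neurons are not known. This list had a median percentile of 33.7, and 16 of its 50 members were above the 50th percentile. Its percentiles ran from 0.27 to 97.7, beside 3.02 to 98.6 for the members, so neither a high nor a low place of a member was read as expression or its absence.

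The design compares pool sizes, which bears on whether the members' signals depend on the number of dendrites that went into an amplification. In the limma fit no gene passed an adjusted p of 0.05 between any 2 pool sizes, and the lowest adjusted p of a member was 0.999. The share of all 14217 genes called was 0% in each comparison by adjusted p, and the methods' t-test also called 0. For 200 against 100 dendrites, 2 of 9 members had an unadjusted p under 0.05, both lower in the larger pool, where 3.03% of all genes were under it and 1.53% were under it and lower (431 genes in all, and 488 by the methods' t-test). By the methods' t-test 0 of the 9 members were under it. Over the 3 comparisons together, the limma count of 2 was 0 without replicate 2 or 3 of 100 dendrites or replicate 3 of 200 dendrites, 1 without replicate 1 or 2 of 200 dendrites and 3 without replicate 1 of 100 dendrites. For 400 against 100 dendrites there were 0 of 9, against 2.41% of genes (342, and 408 by the methods' t-test), and for 400 against 200 dendrites 0 of 9, against 2.3% (327, and 409).

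The 2 members under that unadjusted level were Cpeb1 and Stau2. Cpeb1 had means of 8.28 ± 1.42 and 6.16 ± 0.97 (SD, n = 3) in pools of 100 and 200 dendrites, a limma difference of -2.12 with a 95% interval from -3.81 to -0.43 (unadjusted p = 0.0182, adjusted p = 0.9999). In pools of 400 its mean was 7.30 ± 1.21, between the other pool sizes. Stau2 had means of 8.46 ± 0.62 and 7.43 ± 0.41, a difference of -1.03 with an interval from -2.003 to -0.05 (limma, unadjusted p = 0.0404, adjusted p = 0.9999), and 7.97 ± 0.58 in pools of 400. The difference of Stau2 was -0.21 when the gene was read by its probe set of highest mean (limma, unadjusted p = 0.633, adjusted p = 0.9996), and none of its 4 probe sets taken singly was under 0.05 (differences from -1.25 to -0.21, limma unadjusted p from 0.149 to 0.634, adjusted p = 0.9998). Neither followed the number of dendrites in order. No member had all arrays of 1 pool size above or below all arrays of another (0 of 9 in each comparison), which was the case for 6.25%, 7.8% and 6.77% of all genes for 400 against 100, 200 against 100 and 400 against 200 dendrites.

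All other intervals of members included 0 in the 3 comparisons. The median difference over the 9 members was 0.03 for 400 against 100, -0.03 for 200 against 100 and 0.08 for 400 against 200 dendrites, beside 0.02, 0.0017 and 0.01 over all genes. The narrowest interval of a member, that of Zfp36l1, reached 0.736 to either side, and the widest, that of Fmr1, reached 1.71. These are intervals of single genes, and passing the threshold adjusted over all genes takes more: the -2.12 of Cpeb1 did not pass. For 400 against 100 dendrites Zfp36l1 differed by -0.15 (interval -0.88 to 0.59), Stau1 by -0.04 (-0.83 to 0.75) and Igf2bp1 by 0.63 (-0.47 to 1.73). The largest positive difference between 400 and 200 dendrites was that of Cpeb1, 1.14 (-0.55 to 2.83). Over the 3 pool sizes together, no member passed limma's moderated F, with 0% of genes called and the lowest member p for Cpeb1 (limma, unadjusted p = 0.0545, adjusted p = 0.9997). On log2 of the number of dendrites no member had a slope that passed, again with 0% of genes called. The lowest p was that of Igf2bp1, at 0.32 log2 units per doubling (interval -0.23 to 0.86, limma adjusted p = 0.9991).

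**Figure D3:**
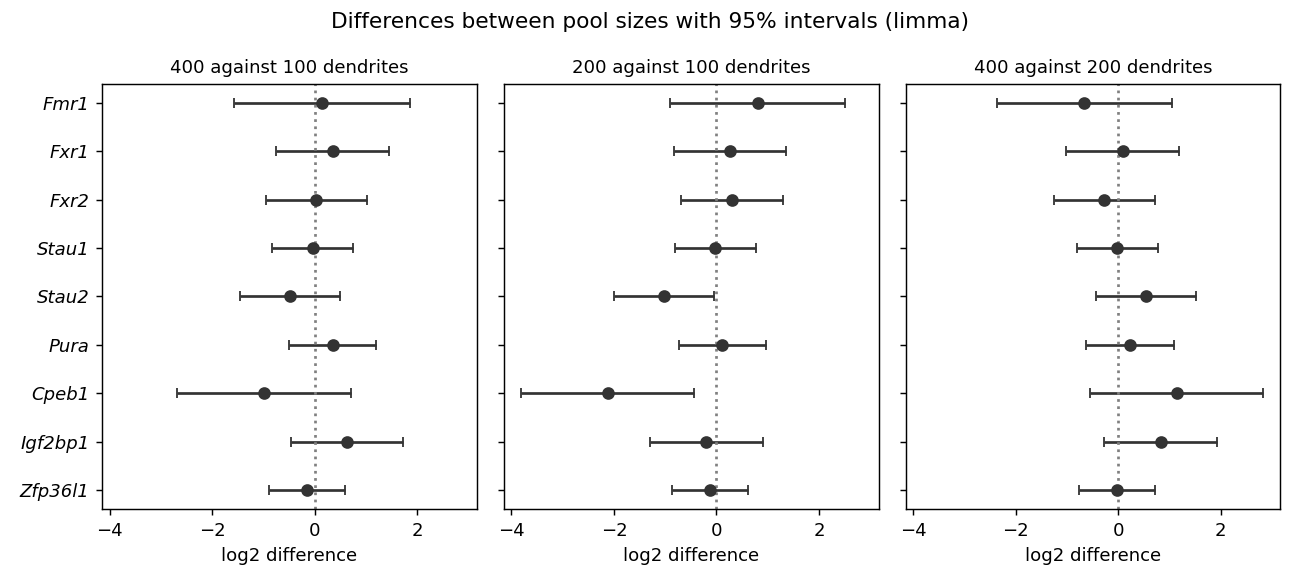
Difference in log2 signal between pool sizes (horizontal axis, first minus second) for the 9 genes (vertical axis). Points are limma estimates from 3 arrays per pool size, and bars are 95% intervals without adjustment over genes. The intervals of Cpeb1 and Stau2 for 200 against 100 dendrites end below 0, at -0.43 and -0.05, and all others include 0.

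Single probe sets gave the same count. Of the 14, none passed the adjusted threshold, beside 0% of all probe sets, and the lowest adjusted p of a member probe set was 0.9998 by limma. Unadjusted p under 0.05 was reached by 0, 1 and 0 of them for 400 against 100, 200 against 100 and 400 against 200 dendrites, beside 2.21%, 2.87% and 2.04% of all probe sets. For 400 against 100 dendrites the brightest Stau2 probe set, 1387456_at, was lower in every array of 400 than in every array of 100, which 2.96% of probe sets also were, and means were 11.37 ± 0.14 and 10.61 ± 0.71 (SD, n = 3). For 200 against 100 dendrites probe set 1383236_at of Fxr1 was lower in every array of 200, which 3.56% of probe sets also were, with means of 5.99 ± 0.21 and 5.56 ± 0.10 (SD, n = 3). The other probe sets of these 2 genes had overlapping arrays in both comparisons.

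No pair of members had a correlation over the 9 arrays that passed adjustment. Of their 36 pairs, 20 had a positive and 16 a negative Pearson's r, and the median was 0.03. The highest was that of Fxr1 with Fxr2 (r = 0.67, exact permutation p = 0.048, rho = 0.35, p = 0.359), and r was -0.26 without the 2 arrays farthest from the median of Fxr1. Here and below, the 2 farthest arrays are those farthest from the median of the first member named. Leaving them out also narrows the range of that member, so a fall in r does not show that the relation rests on them. The lowest was that of Stau1 with Pura (r = -0.71, exact permutation p = 0.032, rho = -0.66, p = 0.059). It was -0.82 without the 2 farthest arrays and -0.75 within pool sizes. The lowest p adjusted over the 36 pairs was 0.615 (exact permutation tests). Without replicate 1 of 400 dendrites the pair of Stau1 and Pura did pass, at r = -0.93 and an adjusted p of 0.0196 (exact permutation test, n = 8). Fmr1 with Fxr1 had r = 0.53, and -0.29 without the 2 farthest arrays.

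**Figure D4:**
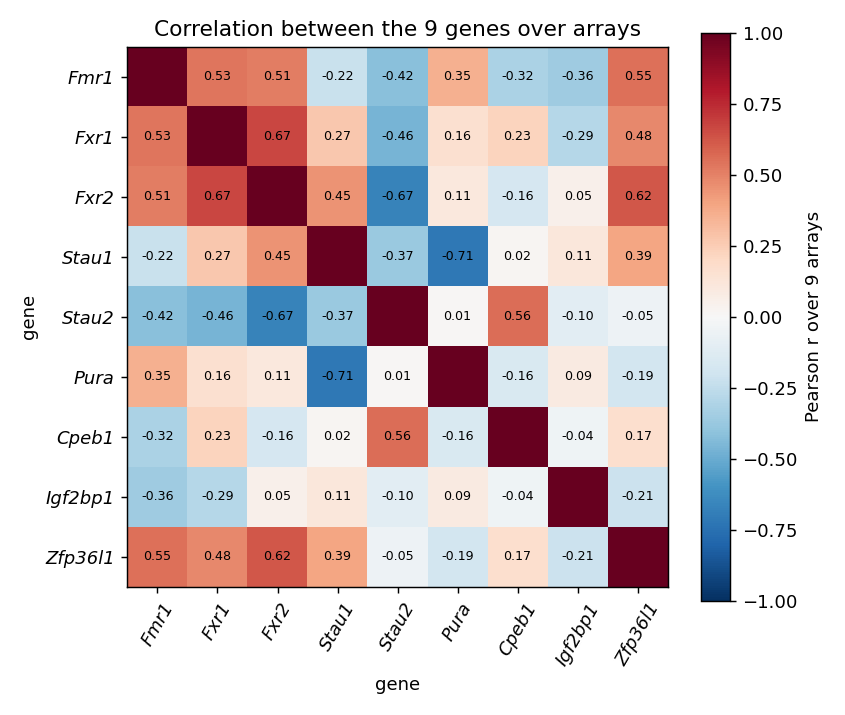
Pearson's r over 9 arrays between the gene values of the 9 members, named on both axes. Colour gives r from -1 (blue) to 1 (red), the number is printed in each cell, and the diagonal is each gene with itself. The values run from -0.71 for Stau1 with Pura to 0.67 for Fxr1 with Fxr2, with no block of uniformly positive cells across the members.

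Array quality was set beside the members, since RNA amplified in several rounds from the 3′ end becomes short. The 3′ minus 5′ difference of the Gapdh control probe sets, in log2 units, ran from 0.843 in replicate 3 of 400 dendrites to 2.99 in replicate 1 of 100 dendrites. Over the 9 members and 4 array measures (the 3′ minus 5′ difference of Gapdh, beta-actin and hexokinase, and an array's mean correlation with the others), none of 36 relations passed adjustment by exact permutation test, and 4 had an unadjusted p under 0.05. The lowest p was that of Stau1 with the Gapdh difference (r = 0.84, exact permutation p = 0.0045, adjusted p = 0.162, rho = 0.72, adjusted p = 0.442), which was 0.85 without the 2 farthest arrays and 0.88 within pool sizes. Pura had the opposite sign against the same measure (r = -0.72, adjusted p = 0.264, rho = -0.84, adjusted p = 0.125, exact permutation tests), and -0.43 without the 2 farthest arrays. The other 2 relations under 0.05 were with an array's mean correlation with the others, for Stau1 (r = -0.75, exact permutation p = 0.0218, adjusted p = 0.264, rho = -0.58, adjusted p = 0.543) and for Fxr2 (r = -0.71, exact permutation p = 0.0267, adjusted p = 0.264, rho = -0.57, adjusted p = 0.543). Without the 2 farthest arrays they were -0.61 and -0.54. Fxr1 had rho = -0.85 with that measure (exact permutation p = 0.0061, adjusted p = 0.125), beside r = -0.62 (adjusted p = 0.334). These relations were examined after the values of the members had been seen. The part of RNA length and of array quality in the members' values was not tested.

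For each member, the gene whose values were most alike over the 9 arrays was sought among the other 14216. Since the best of many genes over few arrays is always high, the r of the tenth best gene is given as a measure of that. The nearest gene to Zfp36l1 was Cluh (r = 0.97), itself an RNA-binding protein of mRNAs for mitochondrial proteins, and that to Fmr1 was Ddx3x-ps1 (r = 0.98, rho = 0.73). The others were Smim7 for Fxr1 (0.98), Npepl1 for Fxr2 (0.93), Ssr2 for Stau1 (0.96), Rev3l for Stau2 (0.91), Yipf3 for Pura (0.95), C7h12orf75 for Cpeb1 (0.91) and Nupr1 for Igf2bp1 (0.98). The tenth best genes had r from 0.85 to 0.94. No member was the nearest gene of another.

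Paralogs and binding partners of the members were described in the same way. Of 13 listed, 12 were measured, with a median percentile of 65.4, and 8 were above the 50th. Nufip1, which binds FMRP in the nucleus, was at 98.4, and Zfp36 (tristetraprolin), the paralog of Zfp36l1, was at 97.5, with 11.16 ± 0.23 (SD, n = 9). The third gene of that family, Zfp36l2, was at 46.4. Cyfip2 was at 88.7 and its paralog Cyfip1 at 22.7, both partners of FMRP in translational repression and actin control. Nufip2 was at 37.9. Igf2bp2 was at 79.5 and Igf2bp3 at 69.6. Cpeb3 was at 76.4 and Cpeb4 at 61.2. Purb was at 49.5 and Purg, the gene of this list with the second smallest unadjusted p for 400 against 100 dendrites, at 57.3. None of the 12 passed in any comparison, and none had an unadjusted p under 0.05 for 400 or 200 against 100 dendrites.

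Of 59 other RNA-binding proteins of granules and mRNA control, 47 were measured and 28 lay above the 50th percentile, with a median of 61.0. The highest were Smn1, of the complex that assembles small nuclear ribonucleoproteins, at 94.7 and Celf4, a neuronal regulator of mRNA stability, at 90.7. The lowest were the helicase Dhx9 at 4.06 and Magoh, of the exon junction complex, at 8.77. For 400 against 100 dendrites 25 of 47 were higher and 22 lower, with 1 in each direction under an unadjusted p of 0.05 in limma, Ilf2 higher and Celf4 lower, beside 342 of 14217 genes (2.41%). For 400 against 200 dendrites 1 was under it, Khdrbs3, which was higher (limma, unadjusted p = 0.0141), and for 200 against 100 none was. None passed adjustment.

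Known cargo mRNAs of these granules ranked from bottom to top. Of 13 listed, 12 were measured and 7 were above the 50th percentile, with a median of 60.6. Nrgn was at 99.4, Map1b at 98.2 and Dlg4, which encodes PSD-95, at 98.1. Camk2a, the classical dendritic mRNA, was at 28.8 by the median of its 4 probe sets, with 6.81 ± 0.21 (SD, n = 9). Plat was at 6.68. Arc, at 38.5, differed by 1.20 between 400 and 100 dendrites, from 6.38 ± 0.38 to 7.58 ± 0.26 (SD, n = 3, limma unadjusted p = 0.005, adjusted p = 0.9991). It was the 1 of 12 with an unadjusted p under 0.05 in that comparison, beside 2.41% of all genes. For 200 against 100 dendrites 1 of 12 was under it, Bdnf, higher by 1.23 (limma, unadjusted p = 0.0485, adjusted p = 0.9999), beside 3.03% of all genes. Neither passed adjustment over all genes. The beta-actin mRNA, cargo of Igf2bp1, had no probe set among those tested that named it alone. Its control probe sets were used only for the 3′ minus 5′ difference.

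**Figure D5:**
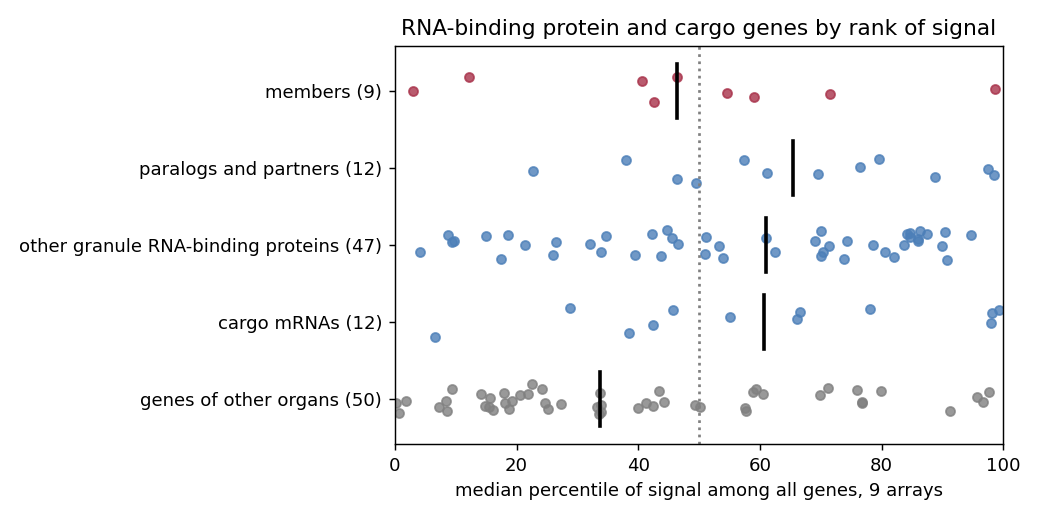
Median percentile of signal among all genes over 9 arrays (horizontal axis) for the 9 members and for lists of related genes and genes of other organs (vertical axis, number of measured genes in brackets). Each point is a gene, black ticks are list medians, and points are spread vertically only to be seen. The genes of other organs run from 0.27 to 97.7, the members from 3.02 to 98.6, so that places of single genes in the groups overlap over nearly the whole axis.

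The labels call the cells pyramidal neurons. Of the 10 measured pyramidal markers 7 were above the 50th percentile, with a median of 80.7, led by Neurod2 at 99.9 and Nrgn at 99.4, while Tbr1 was at 2.44. The interneuron list had a median of 36.9, with 4 of 9 above the 50th percentile. Calb2 at 86.7 and Sst at 64.6 were its highest, and the GABA-synthesis and transport genes Gad1, Gad2 and Slc32a1 were its lowest, at 13.7, 15.6 and 11.6. Astrocyte markers had a median of 74.9 with 5 of 9 above the 50th percentile, S100b at 90.1 among them and Aqp4 at 10.03, and microglial, oligodendrocyte, endothelial and fibroblast lists had medians of 34.98, 57.2, 52.6 and 33.5. In the endothelial list Vwf and Esam were at 99.8 and 98.5, while Tek was at 11.2. The mean signal of the astrocyte list ranged from 6.90 to 8.45 over arrays and that of the fibroblast list from 6.85 to 8.75. Counts of higher and lower markers differed among the lists, and genes read on the same arrays are not replicates. Interneuron markers were lower in 8 of 9 for 200 against 100 dendrites, where 50.1% of all genes were higher. The median difference was -0.48, with array means of the list from 7.23 to 7.55 with 100 and from 6.76 to 7.14 with 200 dendrites. Of the 9, 2 had an unadjusted limma p under 0.05, Dlx1 and Vip, beside 3.03% of all genes. For 400 against 200 dendrites 6 of 9 were higher, beside 51.1% of all genes, with a median difference of 0.53 and array means from 7.30 to 7.50 with 400. Dlx1 and Vip were again under 0.05, both higher (limma, unadjusted p = 0.0217 and 0.0309), beside 2.3% of all genes. Both comparisons use the same arrays of 200 dendrites. Fibroblast and mural cell markers were higher in 8 of 9 for 400 against 100 dendrites, beside 51.5% of all genes, with a median difference of 0.43. Their array means ran from 6.85 to 7.57 with 100 and from 7.16 to 8.75 with 400 dendrites. Of the 9, 1 had an unadjusted p under 0.05, Col3a1 (difference 1.76, limma unadjusted p = 0.0040), beside 2.41% of all genes. Microglial markers were lower in 9 of 10 for 400 against 200 dendrites, where 51.1% of all genes were higher, with a median difference of -0.20. Endothelial markers were higher in 6 of 7 for 200 against 100, beside 50.1% of all genes, with a median difference of 0.10. In these 2 comparisons 0 markers of the 2 lists had an unadjusted limma p under 0.05, beside 2.3% and 3.03% of all genes. No marker passed adjustment in any comparison. The part of other cells' RNA in the members' values was not tested. Arrays correlated with one another at r from 0.678 to 0.878. Replicate 1 of 400 dendrites had the lowest mean correlation with the rest, 0.749. It was followed by replicate 1 of 100 dendrites with 0.777 and replicate 1 of 200 dendrites with 0.809.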

How the data were processed

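RNA of pooled dendrites was amplified in 3 rounds, and the authors deposited log2 signals per probe set, computed by RMA 2.0 according to the submitters' processing notes. Such amplification starts at the 3′ end and shortens RNA, so a probe set far from that end can read low. Centring on the array median and scaling, which the study's methods describe, had not been applied to the deposited table and were tried as an alternative. Of 31099 probe sets, 57 controls were left out of the tests, and 31042 were kept with no filter. Symbols were updated through Entrez gene IDs for 20758 of 20826 probe sets that name 1 gene. The ID given for Pura was not in the RefSeq table used, which lists Pura under another ID. Its platform symbol was kept, and all values of Pura rest on that symbol. Mouse arrays and probe sequences were not used here.

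Pool sizes were compared with limma 3.58.1 in R 4.3.3, in 1 fit of all 9 arrays, two-sided, with Benjamini-Hochberg adjustment over all genes or probe sets and a threshold of 0.05. The code of the fit was checked on simulated probe sets with independent normal errors and known shifts. That setting holds no array effects and no relations between genes, so it bears on none of the results here. Correlations used exact permutation over 9 arrays (8 where 1 was left out), with Python 3.11.15, scipy 1.17.1, numpy 2.4.6 and pandas 2.3.3, and figures matplotlib 3.10.9. The number of arrays limits the precision. Alternatives were quantile normalization, the methods' scaling, features above the median of the mean, a trended and robust variance, the replicate number as a block, the methods' t-test, other gene values, and leaving out each array. Named were all members and for each member the gene most alike. For the lists, the rule was to name the genes of highest and lowest rank and of smallest p for 400 against 100 dendrites. It was followed only in part, and other list genes were named after their values were seen. Members, lists and tests were chosen with earlier results of these data known.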

Additional observations from a re-analysis of the deposited data

Results flagged for a closer look

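Among 16 features tested for a stray array (the 9 gene values and the 7 probe sets of Fxr1 and Stau2, over 9 arrays), 1 stood out. The brightest Stau2 probe set, 1387456_at, read 9.79 in replicate 1 of 400 dendrites and from 10.90 to 11.53 on the other 8 arrays, so that its gap to the next array was 0.637 of the whole range, above Dixon's critical value for 9 samples. Chance flags about 1 in 20 such features. That array also had the lowest mean correlation with the other arrays, 0.749, and its part in the value was not tested.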

How the results depend on the processing

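The count of genes and of probe sets past the adjusted threshold stayed at 0 in every comparison under every alternative. Deviations from pool size means showed no pairing by replicate number. Their correlation ran from -0.189 to 0.0926 between arrays of the same number and from -0.191 to 0.218 between arrays of different numbers. This does not exclude a link, about which the labels say nothing. With the number as a block the counts were again 0. Then 362, 437 and 336 genes were under an unadjusted limma p of 0.05 for 400 against 100, 200 against 100 and 400 against 200 dendrites. The number of members above the 50th percentile was 4 when any array was left out and 3 with each gene's probe set of highest mean, under which Stau2 ranked at the 94.7th percentile and its difference between 400 and 200 dendrites turned from 0.54 to -0.55. The count of correlated member pairs ran from 0 to 1 when 1 array was left out, the 1 being Stau1 with Pura without replicate 1 of 400 dendrites.

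None of the 27 member differences was called in any setting (lowest adjusted p 0.938), and 15 of them turned sign when some array was left out. For 400 against 100 dendrites the ranges without 1 array were -0.31 to 0.73 for Fmr1, -0.38 to 0.32 for Fxr2 and -0.24 to 0.21 for Stau1. For 200 against 100 they were -0.17 to 1.39 for Fmr1, -0.30 to 0.57 for Fxr1, -0.12 to 0.13 for Stau1, -0.043 to 0.27 for Pura, -0.65 to 0.22 for Igf2bp1 and -0.24 to 0.038 for Zfp36l1. For 400 against 200 they were -1.22 to 0.31 for Fmr1, -0.23 to 0.64 for Fxr1, -0.68 to 0.016 for Fxr2, -0.21 to 0.23 for Stau1, -0.060 to 0.51 for Pura and -0.19 to 0.094 for Zfp36l1. Cpeb1 for 200 against 100 dendrites ran from -2.90 to -1.50 and Stau2 from -1.34 to -0.72, while Stau2 by its probe set of highest mean was at -0.21 (limma, unadjusted p = 0.633, adjusted p = 0.9996). By the methods' t-test, the unadjusted p of these 2 was 0.0995 for Cpeb1 and 0.0757 for Stau2 (adjusted p = 0.998). The cause was not tested. With 3 arrays per pool size, and pools in which 1 amplification stands for many dendrites, intervals of members reached from 0.736 to 1.71 log2 units to either side without adjustment over genes.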
